A study of Mus musculus with 8 samples.

Results

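The CDK inhibitors of the Cip/Kip and INK4 families were described in the thyroid of mice given 99mTcO4- (technetium pertechnetate, a short-lived radioactive anion that the thyroid takes up through the iodide transporter) and of control mice. The members were chosen by gene name, as every probe that the array files assign to Cdkn1a, Cdkn1b, Cdkn1c (the Cip/Kip family), Cdkn2a, Cdkn2b, Cdkn2c or Cdkn2d (the INK4 family). They were 7 genes with 12 probes on 21 spots, of 34797 gene names, 55681 probes and 59305 spots. The Cip/Kip family had 3 genes on 15 spots, and the INK4 family had 4 genes on 6 spots. Total RNA from 8 thyroids was hybridised to 8 one-colour Agilent arrays of 1 slide. The study's methods give female Balb/c mice, 8 weeks old at purchase. Its results give, for the arrays, an absorbed dose of 30 Gy to the thyroid and RNA taken 24 hours after administration. The 4 exposed arrays (labelled Tc) came from mice S539, S588, S589 and S590, and the 4 control arrays (labelled Ct) are called control 1 to control 4. The controls are described both as untreated and as given saline. The exposed samples held the first positions of the slide and the controls the others, so position and exposure cannot be told apart.

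Cyclin-dependent kinases bind cyclins and phosphorylate the RB proteins, which releases E2F factors and lets a cell enter S phase. Cip/Kip inhibitors (p21, p27 and p57) bind many cyclin-CDK complexes, whereas INK4 inhibitors (p16, p15, p18 and p19) bind Cdk4 and Cdk6 and keep D-type cyclins away from them. Cdkn1a is a well-known transcriptional target of p53 after DNA damage, Cdkn1b keeps resting cells out of the cycle and is controlled largely through protein degradation, and follicular cells of the adult thyroid divide rarely.

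The start regions of Cdkn1a are shown because it was the member that changed. In RefSeq (GRCm38.p6) Cdkn1a had 2 annotated starts on the plus strand of chromosome 17, 2790 bases apart. The 250 bases before each start are printed 5′ to 3′, and capitals mark the match to the p53 consensus in the first and each GGGCGG in the second.
Cdkn1a upstream start, chr17:29090729-29090978: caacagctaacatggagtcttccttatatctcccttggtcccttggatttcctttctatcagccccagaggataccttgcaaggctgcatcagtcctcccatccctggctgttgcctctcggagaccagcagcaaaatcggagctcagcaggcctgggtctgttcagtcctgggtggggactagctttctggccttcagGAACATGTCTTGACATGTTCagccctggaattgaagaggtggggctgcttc
Cdkn1a downstream start, chr17:29093519-29093768: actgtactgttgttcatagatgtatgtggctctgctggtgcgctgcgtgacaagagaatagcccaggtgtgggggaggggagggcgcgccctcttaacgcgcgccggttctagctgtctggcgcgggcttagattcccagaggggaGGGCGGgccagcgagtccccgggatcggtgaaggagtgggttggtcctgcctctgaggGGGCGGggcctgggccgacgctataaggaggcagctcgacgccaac

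The p53 consensus was searched on both strands without a spacer, with at most 1 mismatch allowed outside the CWWG cores of its repeats. Among 32851 promoter windows of 250 bases, 15 (0.0457%) held such a match, and the upstream Cdkn1a window was one of them. Its match, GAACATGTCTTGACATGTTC, lay 32 bases before the start and differed from the consensus at position 11, counted from 1 at its 5′ end. None of the other 8 member windows held one. With no mismatch allowed, 3 of all windows (0.00913%) held the consensus, and no member window did. GGGCGG, searched on both strands, occurred at 2 positions in the downstream Cdkn1a window and not in the upstream one, and 32.7% of all windows held it. The TATAA motif, searched likewise and present in 22.8% of all windows, lay 21 bases before the start in the downstream window, and 223 bases before it on the opposite strand in the upstream one. A window was found for 6 of the 7 genes, and Cdkn1c had no entry. The table does not pair the windows with transcripts, and a match is a description of the letters.

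Of the 7 inhibitors, Cdkn1a alone passed the test, and it rose in the exposed thyroids. Its fold change was 14.2 on the probe of highest mean signal, while the other 6 genes lay between -0.36 and 0.45 on the log2 scale and did not pass. Values are log2 of the background-subtracted spot signal after quantile normalisation, so a difference of 1 is a doubling, and differences are exposed minus control. A gene was represented by the brightest of its RefSeq probes on average, and a change was called at an adjusted p under 0.05 (limma, Benjamini-Hochberg over all 55681 probes). By that rule 1.2% of 21021 genes were called, and 0.904% of all these genes were called higher, against 1 of the 7 members. Over the members the median log2 fold change was 0.30, with 5 higher and 2 lower, and over all genes it was -0.03. All 7 genes were well above background on all 8 arrays by their representative probe, as were 10 of the 12 probes. No spot was saturated on any array.

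**Figure D1:**
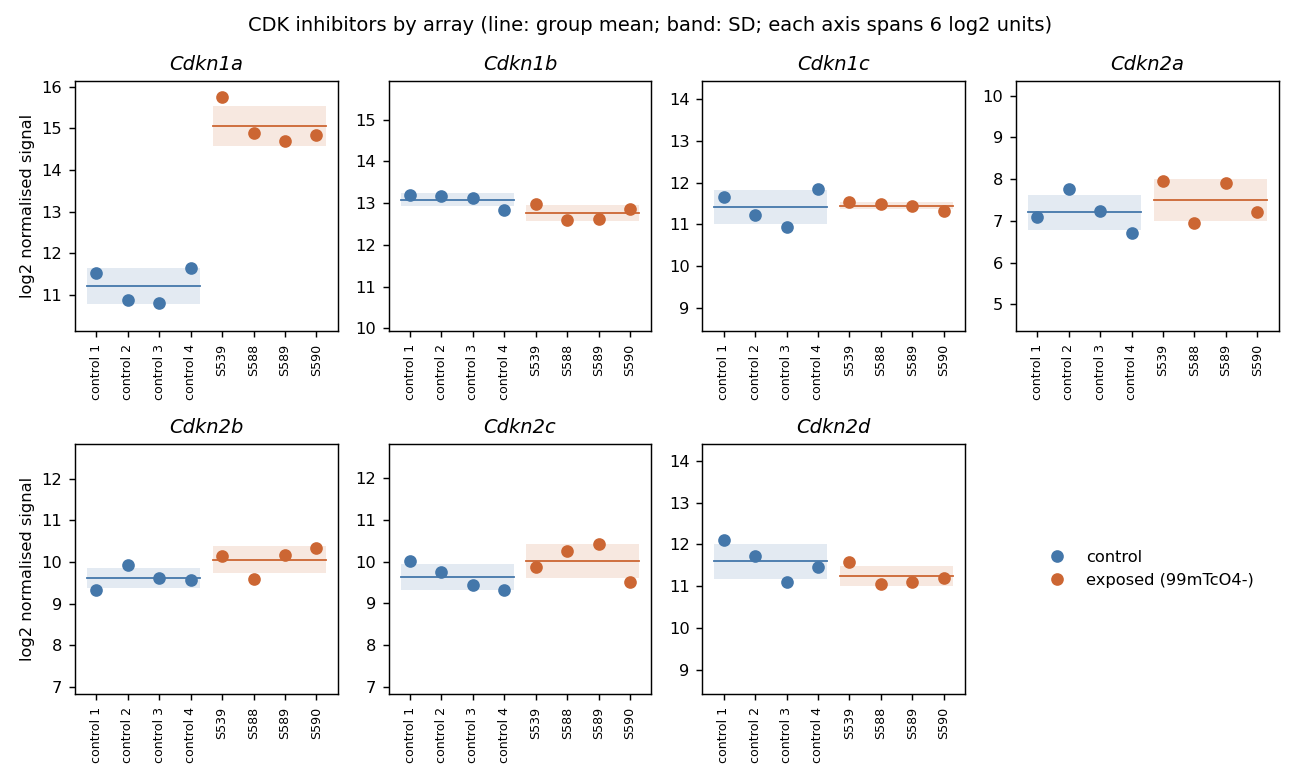
Log2 normalised signal (y axis, 6 log2 units in every panel) of the representative probe of each CDK inhibitor on 8 arrays (x axis), with the group mean as a line and the SD as a band. The 4 exposed Cdkn1a points lie between 14.70 and 15.76, above the controls at 10.80 to 11.64, and in the other 6 panels the groups overlap.

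Among the Cip/Kip genes, Cdkn1a encodes p21, which halts the cycle at G1 and G2. Its probe A_51_P363947 (NM_007669, base 1619 of the transcript, mm9 chr17:29237377-29237436, plus strand) was printed on 10 spots. It read 11.54, 10.88, 10.80 and 11.64 in control 1 to 4. In S539, S588, S589 and S590 it read 15.76, 14.89, 14.70 and 14.84. S539 was the highest array, S588, S589 and S590 lay close together, and the lowest exposed array was far above the highest control. The difference was 3.83 (SE 0.30, n = 4 and 4, 95% interval 3.13 to 4.53), with an adjusted p of 0.0032 by limma. As a fold this is 14.2 (95% interval 8.73 to 23.1). A two-sided exact permutation test over the 70 assignments of the arrays gave p = 0.0286, the smallest it allows. Among 21021 genes Cdkn1a ranked 10 by fold change and 19 by p.

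The spots of this probe varied far less than the mice did. Over the 10 spots of 1 array the SD ran from 0.045 in S590 to 0.201 in S588, against an SD between mice of 0.44 in the controls and 0.48 in the exposed group. In S588 the spots ran from 14.72 to 15.43, and the scanner software had marked the highest of them as an outlier. The 10 spots are repeat readings of 1 sequence and were averaged as 1 value per mouse.

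The other Cdkn1a probes also rose. Probe A_55_P1986282 (NM_001111099, base 55 of the transcript, mm9 chr17:29227986-29228045) lies near the 5′ end of transcript variant 2. It read 8.89, 8.13, 7.24 and 8.19 in control 1 to 4, and 11.21, 10.38, 10.69 and 11.03 in S539, S588, S589 and S590. The groups stood apart, with control 3 the lowest and S539 again the highest. The difference was 2.72 (SE 0.35, adjusted p = 0.0203, limma). The scanner software had marked the control 1 spot, the highest control, as an outlier, and without control 1 the difference was 2.97. Probe A_55_P1976204, assigned to an Ensembl transcript (ENSMUST00000122348), read 4.79, 5.24, 6.70 and 6.09 in the controls and 10.53, 8.53, 9.11 and 9.18 in the exposed mice. It was well above background in control 3 only among the controls and in all 4 exposed arrays, so the values of the other 3 controls are not separated from background. The measured difference was 3.63 (SE 0.54, adjusted p = 0.0308, limma). Its size depended on the background treatment, with 2.35 by normexp and 2.48 without background correction. It ran from 3.23 to 3.96 with 1 array left out. The calls of A_55_P1986282 and A_55_P1976204 were lost in 8 of 20 and 11 of 21 alternative settings, most of them with fewer arrays, and the direction in none.

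**Figure D2:**
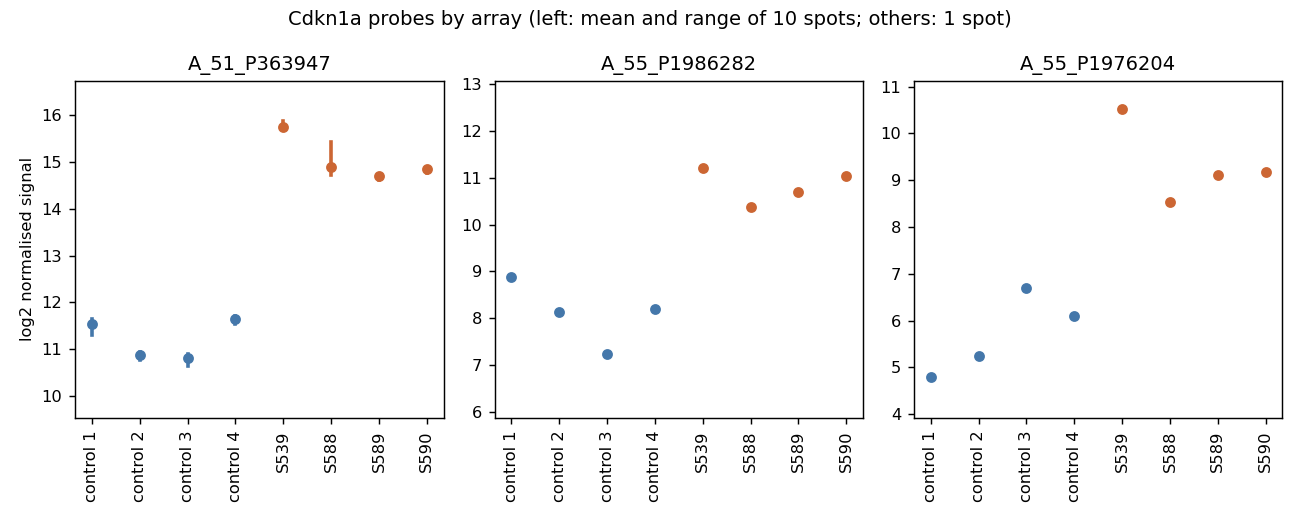
Log2 normalised signal (y axis) of the 3 Cdkn1a probes on each array (x axis), with the mean and range of 10 spots for A_51_P363947 and 1 spot for each other probe. In every panel the exposed arrays lie above all controls and S539 is highest, at 15.76, 11.21 and 10.53.

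Signal levels of different probes cannot be set against each other. Their changes were compared, with the limit that the change of a dim probe depends on the background treatment. Whether the probes respond on the same scale was not tested. The rise on A_51_P363947 exceeded that on the variant 2 probe by 1.11 (exact permutation p = 0.0286). Over the 6 pairs of probes of the same gene that were compared this became an adjusted p of 0.171, which did not pass, and with 70 assignments a single pair at the smallest p could not have passed. Without control 1, whose spot on the variant 2 probe was marked, the rises were 3.94 on A_51_P363947 and 2.97 on the variant 2 probe. The pairs with A_55_P1976204 give no exact difference, since 3 controls were not well above background on it. With the table of log2 values that the authors deposited in place of the scanner signal, the 3 probes gave 3.80, 2.84 and 2.49. Without background correction they gave 3.81, 2.82 and 2.48.

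Together, 3 of the 12 member probes were called, all of them for Cdkn1a, against 0.781% of all 55681 probes and 0.587% called higher. The exposed and control arrays did not overlap for 4 of the 12, the fourth being a probe for Cdkn2b, against 9.11% of all probes. All 4 lay higher in the exposed mice, against 4.74% of all probes.

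Cdkn1b encodes p27, which holds resting cells in G0. Its probe A_55_P2026562 (mm9 chr6:134875424-134875483) read 13.19, 13.17, 13.13 and 12.84 in control 1 to 4 and 12.98, 12.60, 12.62 and 12.86 in S539, S588, S589 and S590. Control 4 lay among the exposed arrays, while S588 and S589 lay below every control. The difference of -0.32 (SE 0.15, 95% interval -0.67 to 0.04) did not pass (adjusted p = 0.456, limma). On this probe the interval leaves room for a fall of up to 0.67 and almost none for a rise. The second probe, A_52_P673863, differed by -0.19 (SE 0.38), and its groups overlapped. Its 95% interval, -1.07 to 0.68, leaves room for both a fall and a rise.

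Cdkn1c encodes p57, an imprinted inhibitor expressed from the maternal allele. Its single probe (mm9 chr7:150644753-150644812) read 11.65, 11.23, 10.95 and 11.86 in the controls and 11.55, 11.48, 11.45 and 11.33 in the exposed mice. The exposed arrays fell inside the control range, and their SD was 0.09 against 0.41 in the controls. The difference was 0.03 (SE 0.21, 95% interval -0.47 to 0.52).

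Of the INK4 genes none was called. Cdkn2a encodes p16 and, from another reading frame, p19Arf, and the array files list both transcripts for both of its probes, so the products cannot be told apart here. Its probe A_55_P2008437 (mm9 chr4:88920405-88920464, minus strand) read 7.08, 7.76, 7.25 and 6.72 in control 1 to 4 and 7.95, 6.94, 7.92 and 7.21 in S539, S588, S589 and S590. S539 and S589 were the highest arrays, and S588 lay below 3 of the controls. The difference was 0.30 (SE 0.31, 95% interval -0.42 to 1.02). The other Cdkn2a probe was well above background on no array and gives no fold.

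Cdkn2b, next to Cdkn2a, encodes p15, an effector of TGF-beta. Its probe A_55_P1988183 (mm9 chr4:88952276-88952335, minus strand) read 9.34, 9.93, 9.61 and 9.57 in the controls and 10.15, 9.58, 10.17 and 10.33 in the exposed mice. S539, S589 and S590 lay above every control and S588 did not. The difference was 0.45 (SE 0.21, 95% interval -0.04 to 0.93, adjusted p = 0.441, limma). The second probe, A_55_P1979526, with 1 spot per array, read 6.73, 7.50, 7.41 and 7.48 in the controls and 7.65, 9.22, 7.85 and 7.87 in the exposed mice. Here all exposed arrays lay above all controls, with S588, the lowest exposed array on the first probe, highest by more than 1 log2 unit. The scanner software had marked that spot of S588 as an outlier, and without S588 the difference of 0.87 (SE 0.37, adjusted p = 0.405, limma) became 0.51.

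Cdkn2c encodes p18, known from haematopoietic and muscle differentiation. It read 10.02, 9.75, 9.44 and 9.33 in control 1 to 4 and 9.88, 10.26, 10.42 and 9.52 in S539, S588, S589 and S590. S588 and S589 lay above every control, and S539 and S590 lay among them. The difference was 0.38 (SE 0.25, 95% interval -0.19 to 0.96).

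Cdkn2d encodes p19Ink4d. It read 12.10, 11.72, 11.10 and 11.46 in the controls and 11.58, 11.04, 11.11 and 11.21 in the exposed mice. Control 1 and control 2 were highest, and control 3 lay level with S589. The difference was -0.36 (SE 0.24, 95% interval -0.91 to 0.19). For the 6 genes that did not pass, the intervals of the representative probes reached 1.02 upwards and -0.91 downwards. Those of their other probes above background reached 1.73 upwards (Cdkn2b, A_55_P1979526) and -1.07 downwards (Cdkn1b, A_52_P673863).

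**Figure D3:**
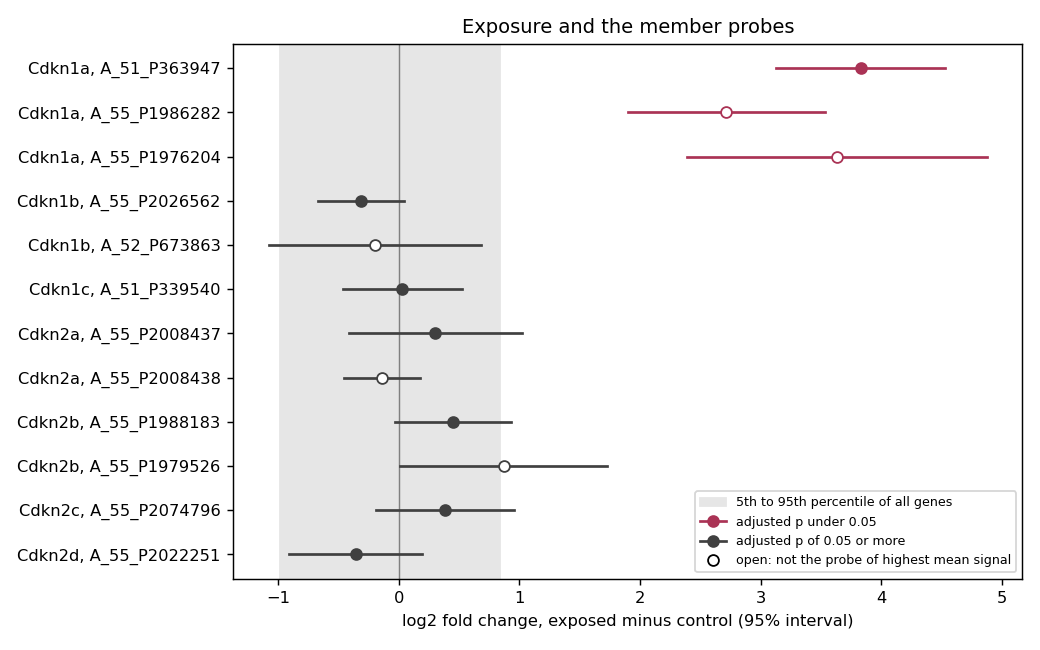
Log2 fold change, exposed minus control (x axis), with its 95% interval for each of the 12 probes (y axis), filled for the representative probe. The 3 Cdkn1a probes lie at 2.72 to 3.83, outside the grey band from -0.98 to 0.84 that holds the 5th to 95th percentile of all genes, and the other representative probes lie inside it.

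The thyroids differed in the signal of other cell types, and 2 members varied alongside it. In bulk tissue, fewer cells of a type and less RNA per cell cannot be told apart. The thyrocyte marker Tg, which encodes thyroglobulin, was bright on every array (18.70 to 19.07), and 8 of 9 thyrocyte markers were well above background on all 8. Markers of T cells and thymocytes, scored as the mean of 9 centred log2 signals, stood at 3.63 in control 1 and 2.67 in control 2, at 0.01 in S539 and between -1.37 and -1.16 in the other 5 arrays. None of the 9 was called, all 9 were lower in fold, and their summed signal ran from 6347 to 80019 in the controls and from 6569 to 10760 in the exposed mice. The thymocyte gene Rag1 was, by its representative probe, well above background in control 1, control 2 and S539 and on no other array. Cdkn2d was highest on those same 3 arrays. With the score as a covariate, its difference moved from -0.36 to -0.06 (SE 0.18). What part the T cell and thymocyte signal had in the level of Cdkn2d was not tested.

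Markers of skeletal muscle, 7 genes such as Myh1 and Myh2, scored -1.56 in S539 and -1.35 in S589 and between -0.19 and 1.19 in the other 6 arrays. None of the 7 was called, and all 7 were lower in fold and well above background on every array. Their summed signal ran from 697708 to 1508619 in the controls and from 332177 to 1124713 in the exposed mice. Cdkn2a was highest in S539 and S589 and lowest in control 4, the array with the highest muscle score. With this score as a covariate the Cdkn2a difference of 0.30 became -0.14 (SE 0.24), and the part of muscle RNA in it was not tested. Of the macrophage and dendritic cell markers 1 of 8 was called, Cx3cr1, a chemokine receptor, which differed by -2.43 (SE 0.24, adjusted p = 0.00714, limma). Over all genes 1.2% were called, and 11.7% did not overlap between the groups. Of the 8 markers 4 did not overlap and 7 were lower in fold, with a median of -0.49. Their score ran from 0.14 to 0.68 in the controls and from -0.54 to -0.18 in the exposed mice, and their summed signal from 16403 to 22430 and from 10719 to 14366. Like the signal of Cdkn1a, this score did not overlap between the groups, and its part in the member values was not tested. No marker of thyrocytes (9), B cells (5), endothelium (6), fibroblasts (6), adipocytes (5), C cells (4) or parathyroid (3) was called.

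Both pairings of a member with a marker score were noticed after the values were seen. The rise of Cdkn1a was 3.93 with the T cell and thymocyte score as a covariate and 3.83 with the muscle score. Without control 1, control 2 and S539 it was 3.59, with 2 controls against 3 exposed arrays, and did not pass (adjusted p = 0.104, limma), as no probe on the array did in that fit, where 6645 had an unadjusted p under 0.05.

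**Figure D4:**
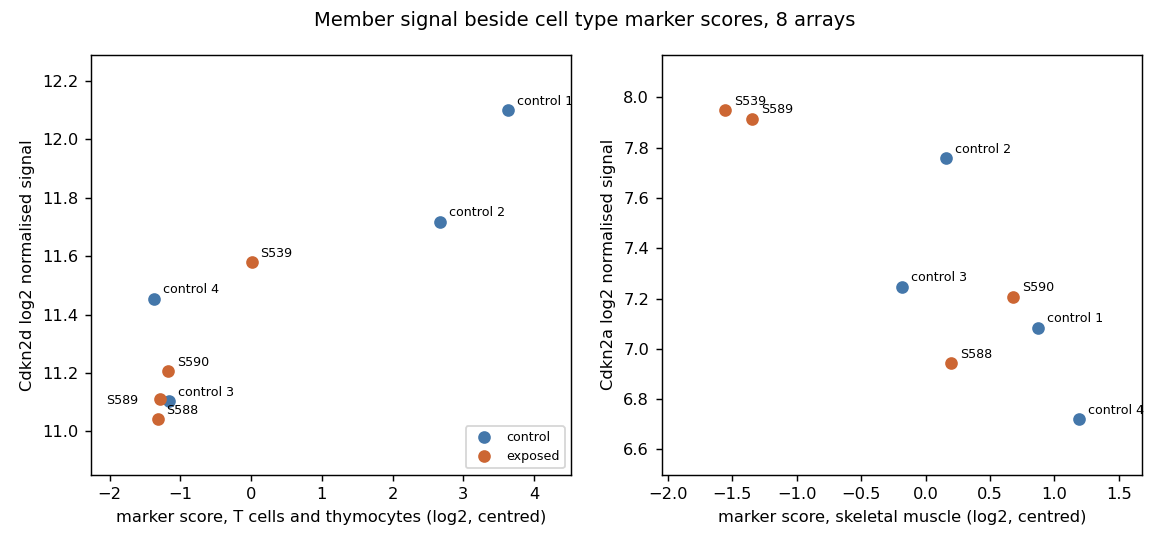
Log2 normalised signal of Cdkn2d against the T cell and thymocyte marker score (left) and of Cdkn2a against the skeletal muscle marker score (right), 1 point per array. Control 1, control 2 and S539 have the highest T cell and thymocyte scores and Cdkn2d levels, and S539 and S589 have the lowest muscle scores and the highest Cdkn2a levels.

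Genes around the inhibitors were read from lists, which were chosen with earlier results of these data known. In 8 of the 9 lists no gene passed. The kinases and cyclins that the inhibitors act on gave 0 of 13 called, with 10 lower and a median log2 fold change of -0.23. The largest difference was that of Ccna2, the S-phase cyclin, at -1.78 (SE 0.72, adjusted p = 0.381, limma). It read 10.36 and 9.96 in control 1 and control 2, 7.97 and 7.01 in control 3 and control 4, and 6.83 to 7.46 in the exposed mice. Control 1 and control 2 thus carried most of that difference. Cdk4, the partner of the INK4 inhibitors, differed by -0.19 (SE 0.17), Cdk2 by -0.14 (SE 0.21) and Ccnd1 by 0.23 (SE 0.16). These and the other genes named below without a call, apart from the one with the largest difference in each list, were chosen after their values were seen.

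The RB and E2F family gave 0 of 13 called and a median of -0.31. E2f2, an activating E2F, had the largest difference at -1.61 (SE 0.78), and it too was highest in control 1 and control 2, at 12.64 and 12.14. Rb1, the retinoblastoma gene, lay higher in all exposed arrays (11.55 to 11.70) than in all controls (11.05 to 11.36), by 0.42 (SE 0.13, adjusted p = 0.239, limma). E2f3 lay lower in all of them, by -0.87 (SE 0.20, adjusted p = 0.129, limma). Groups that do not overlap were found for 11.7% of all genes and for 2 of the 13 genes here. In the lists below the counts were 5 of 15 repressors, 5 of 15 E2F targets, 3 of 16 activators and 2 of 14 turnover genes. They were 2 of 16 neighbouring genes and 1 of 7 genes with an inhibitor name, with none among the kinases and cyclins or the proliferation markers.

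Genes for the turnover of the inhibitors gave 0 of 14 called and a median of -0.22. Dtl, the substrate receptor that targets p21 for degradation, had the largest measured difference (adjusted p = 0.242, limma). It read 7.48 and 7.69 in control 1 and control 2, 5.52 and 5.20 in control 3 and control 4, and 3.39 to 4.87 in the exposed mice. It was well above background in control 1 and control 2 only, the arrays highest in T cell, thymocyte and proliferation markers. Cks1b, the cofactor by which Skp2 recognises p27, read 10.74 to 11.48 in the controls and 9.61 to 10.27 in the exposed mice. Its difference of -1.18 (SE 0.22) had an adjusted p of 0.0752 by limma, and it passed in 6 of the other processing settings. Skp2 itself differed by -0.40 (SE 0.33).

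Transcriptional activators gave 0 of 16 called, 12 of them higher, and a median of 0.17. Klf6, a zinc-finger factor that can activate Cdkn1a, had the largest difference at 0.71 (SE 0.21, adjusted p = 0.238, limma), with 14.44 to 14.86 in the exposed mice against 13.59 to 14.43 in the controls. Trp53, which encodes p53, read 7.93 to 8.97 in the controls and 8.11 to 8.51 in the exposed mice, a difference of -0.27 (SE 0.26). The p53 protein was not measured on these arrays.

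Transcriptional repressors gave 0 of 15 called and a median of -0.02. Myc, which represses Cdkn1a and Cdkn2b, read 8.53, 9.34, 9.16 and 8.96 in control 1 to 4 and 7.75, 7.63, 8.05 and 8.41 in S539, S588, S589 and S590. The groups did not overlap, and the difference was -1.04 (SE 0.24, adjusted p = 0.131, limma). Eed, a Polycomb subunit of the complex that silences the Cdkn2a locus, lay 0.76 higher (SE 0.14, adjusted p = 0.0669, limma) and passed in 6 of the other settings.

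Among E2F targets of the G1/S transition 1 of 15 was called, with 12 lower and a median of -0.58. Cdc6, which loads the replicative helicase, fell. It read 6.56, 6.66, 6.32 and 6.05 in control 1 to 4 and 4.38, 3.78, 3.61 and 4.75 in S539, S588, S589 and S590. It was well above background on all 4 controls and on no exposed array, so on the background-subtracted signal its level was at least 3.38-fold lower in the exposed mice (adjusted p = 0.0174, limma). The size depended on the background treatment: the log2 difference was -0.92 with normexp, -1.04 without background correction and -1.04 in the deposited table, all smaller than this bound. The call was lost without control 2, control 3, S539, S588 or S589, without the 3 arrays high in T cell and thymocyte markers, with either marker score as a covariate, and by the methods' t-test after adjustment. The proliferation markers gave 0 of 12 called, all 12 lower and a median of -1.37. Top2a, a topoisomerase of dividing cells, read 8.87 and 9.58 in control 1 and control 2 and 3.36 to 4.95 on every other array, and was well above background on those 2 arrays only. The score of the list was 1.78 and 1.77 in control 1 and control 2 and between -0.95 and -0.09 in the other 6 arrays. These 2 arrays were also those highest in T cell and thymocyte markers, and the part of those cells in the lower proliferation signal was not tested.

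Other genes with a CDK inhibitor name gave 0 of 7 called and a median of -0.21. Cdkn3, a phosphatase that acts on CDKs and is no member of either family, had the largest difference at -0.995 (SE 0.30, adjusted p = 0.249, limma). Genes next to the member loci gave 0 of 16 called and a median of -0.19. Phlda2, in the imprinted cluster of Cdkn1c, had the largest measured difference, but it was well above background on 3 of 8 arrays, and its readings of 4.57 to 6.68 in the controls and 4.33 to 5.24 in the exposed mice give no exact size. Srsf3, listed here as a neighbour of Cdkn1a, differed by -0.35 (SE 0.14, adjusted p = 0.383, limma).

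**Figure D5:**
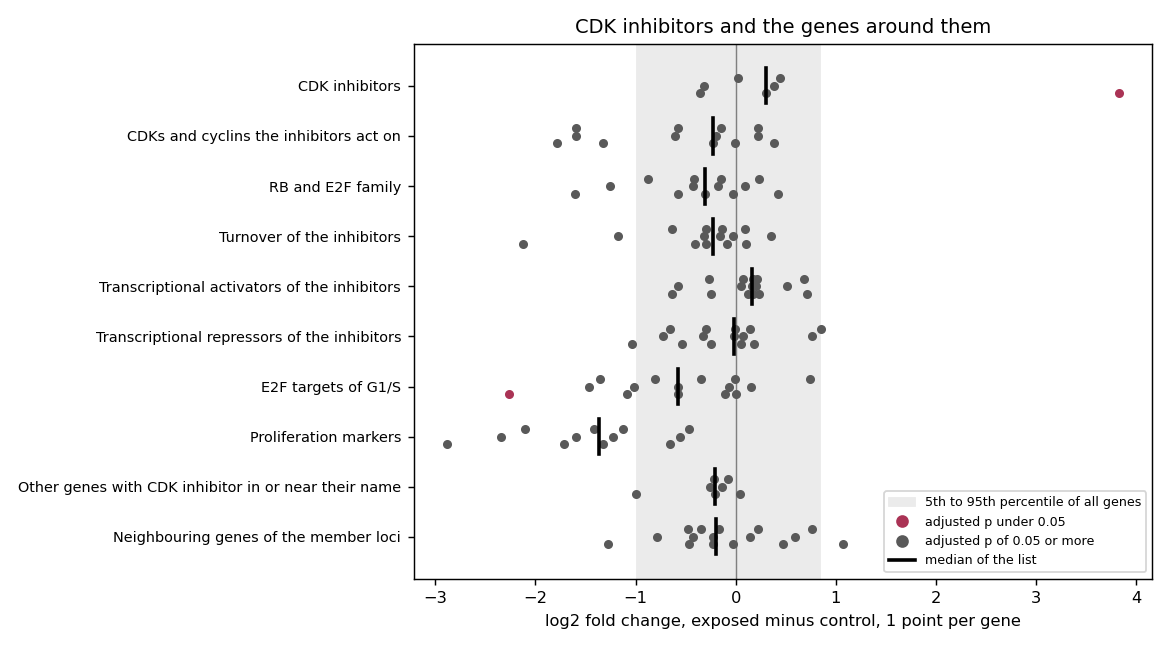
Log2 fold change, exposed minus control (x axis), of the 7 CDK inhibitors and of the genes in 9 lists around them (y axis), 1 point per gene, with the list median as a bar. Cdkn1a at 3.83 and Cdc6 are the genes called, Cdc6 being drawn at its measured difference although no exposed array was well above background for it, and the proliferation markers have the lowest median, -1.37.

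The genes most like each member were taken as those of highest Pearson r over the 8 arrays, among 13703 genes well above background on all of them. For Cdkn1a these were Ccdc163, Plk5 and Zfp365, with r from 0.994 to 0.995. All of them were called higher, by 0.88, 2.58 and 3.35. The distance between the groups enters each of these r. For Cdkn1b they were Fis1, Lcp1 and S100a5 (r from 0.966 to 0.977), and for Cdkn1c Ccbp2, Bcl2l13 and Ecm1 (r from 0.938 to 0.956). For Cdkn2a they were Ywhaz, Oas1a and Cpsf4 (r from 0.939 to 0.980), for Cdkn2b Dio3os, Rps7 and Rpl34-ps1 (r from 0.929 to 0.947), and for Cdkn2c Irs3, Gm11710 and Bckdha (r from 0.953 to 0.956). For Cdkn2d they were Gimap3, Rbm19 and Runx1 (r from 0.974 to 0.987). Gimap3 is known from T cells. None of the genes most like the 6 uncalled members was called. The points of each r share the 8 libraries, and the highest of so many values over 8 arrays is large by selection.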

How the data were processed

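Thyroid RNA of 8 mice was measured on 8 one-colour Agilent arrays, 4 control and 4 exposed, grouped by the sample labels. The authors deposited scanner output of Feature Extraction 10.7.3.1, with a background-subtracted intensity for each spot, and a table of log2 values that they had quantile-normalized. The study's text names limma, quantiles, a B-test and an adjusted p of 0.05 for its arrays. Student's t-test is named there for dual comparisons in general.

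From the deposited intensity, log2 values were quantile-normalized over 59305 non-control spots, and spots of a probe were averaged. R 4.3.3 and limma 3.58.1 (lmFit, eBayes) compared the groups over 55681 probes with Benjamini-Hochberg adjustment. Single probes were also tested by two-sided exact permutation. A probe was well above background on an array where at least 50% of its spots carried the software's mark. For a probe with no such array in a group, the fold is a bound, taken against the higher of its own signal and the lowest signal among probes above background. The share of spots that carried the software's mark was 60.5% to 77.3% per array, and the 75th percentile of signal 701 to 1230, so dim probes are the least precise. Precision is limited by having 4 arrays a group. The text names all members, the called genes of each list or otherwise the gene of largest difference, and for each member the 3 genes of highest r (mean log2 signal of at least 7). Other list genes it names were chosen after their values were seen. The members and lists were chosen with earlier results of these data known. Of the list genes, 2 names had no RefSeq probe. The calculation was tested on simulated data. Probe coordinates (mm9) came from the scanner files, and start regions are from RefSeq (GRCm38.p6). The alternatives were other background corrections, scalings, filters, tests and probe rules, each array left out in turn, and marker scores as covariates. Each group holds 4 mice, 1 array each.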

Additional observations from a re-analysis of the deposited data

Results flagged for a closer look

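Of 24 groups of 4 arrays tested for a single distant value (12 probes in each group), 2 stood out, where chance gives about 1.2. Both were of Cdkn2b on probe A_55_P1979526. Control 1 read 6.73 while the other controls read 7.41 to 7.50, and S588 read 9.22 while the other exposed mice read 7.65 to 7.87. On the brighter Cdkn2b probe S588 was the lowest exposed array, at 9.58.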

How the results depend on the processing

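The number of members called was 1 in 21 of 23 alternatives, among them each array left out in turn (1 to 1). It was 2 by Student's t-test without adjustment, which the study did not name for its arrays and which added Cdkn1b (unadjusted, 0.0435). By limma it was 0 without the 3 arrays high in T cell and thymocyte markers, a choice made after seeing the data, as were both covariates. In that fit 1 member had an unadjusted p under 0.05 and 5 arrays remained. Cdkn1a on A_51_P363947 ran from 3.59 to 3.97, and the mean over the probes of the gene gave 3.39. The calls of A_55_P1986282 and A_55_P1976204 were lost in 8 and 11 alternatives. Directions turned for uncalled values only: Cdkn1b on A_52_P673863 (0.015 after scaling to the 75th percentile, 0.10 without S588, and from -0.41 to 0.10 with 1 array left out), Cdkn1c (-0.04 without control 2, -0.13 without control 3, -0.0048 without S539, and from -0.13 to 0.17 with 1 array left out) and Cdkn2a (-0.14 with the muscle score).

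Over all probes, 435 were called, 75.2% of them higher, against 577 (84.7%) after scaling to the 75th percentile, which moved the median of all probes from 0.01 to 0.16. The count was 856 with normexp, 962 without background correction, 955 in the deposited table, 733 without dim probes, 744 with a variance trend and 959 with array weights (60.9% higher). It was 289 by Student's t-test after adjustment and 6962 before it, 208 and 72 with the covariates, and 100 to 481 with 1 array left out. Of list genes beside Cdc6, Cks1b and Eed passed in 6 alternatives each, Myc in 3 and E2f3 in 3. No paired analysis was made, since the exposed and control thyroids came from different mice. Signal over background limits Cdkn2a probe A_55_P2008438 and Cdkn1a probe A_55_P1976204, the 2 member probes not above background on every array.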
